A study of Rattus norvegicus with 4 samples.

Results

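Spindle motors and mitotic chromosome genes were followed in the ventral prostate of rats given PhIP, a mutagenic heterocyclic amine that arises in meat cooked at high heat. The list held 10 genes: the kinesins Kif11, Kif20a and Kif2c, the microtubule-bundling and spindle assembly genes Prc1, Nusap1 and Tpx2, the chromosome genes Cenpf, Top2a and Mki67, and the ubiquitin-conjugating enzyme gene Ube2c. All probe sets that the platform annotation maps to one of these symbols alone were taken, which gave 13 probe sets of 9 genes, out of 14217 genes named in this way. No probe set carried Tpx2 as its only symbol, and Tpx2 was not analysed here. The rats were males of the F344 laboratory strain, 6 weeks old at treatment. The PhIP group received 300 mg/kg and the control group received none, with no vehicle named in the labels, and both were killed 2 days later. Each group had 4 rats, with 2 of them combined per array, so that PhIP 1, PhIP 2, control 1 and control 2 are pools of 2 rats and the spread between arrays is a spread between pools. The values are MAS5 signals (array brightness on a linear scale) scaled to a common mean on each array.

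When a cell divides, microtubules are built into a bipolar spindle, motor proteins of the kinesin family push, slide and shorten those microtubules, and the chromosomes are condensed and disentangled before they are pulled apart. At anaphase, the anaphase-promoting complex marks cyclins and other proteins for destruction with ubiquitin. Many, but not all, genes for this machinery are transcribed mainly in G2 and mitosis. In a tissue the RNA of those genes can follow the share of cells in those phases, which was not measured here. Promoters of many such genes carry a CHR element (cell cycle genes homology region), which recruits the repressor complex DREAM in resting cells and activators that include B-Myb and FOXM1 in dividing ones, and CCAAT boxes, which bind NF-Y. In the ventral prostate most cells are luminal epithelium, which divides more slowly in adult rats than while the gland grows at puberty.

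Promoter sequences were available for 8 of the 10 genes. Those of 6 are shown: 5 genes that were higher in PhIP together, and Kif2c, at 1 of its start sites, as the gene with the smallest difference. They are the 180 bases before the annotated start site, 5′ to 3′ on the strand of the gene, from RefSeq in build GRCr8. Capitals mark CCAAT, which reads ATTGG where it lies on the opposite strand, and 3 hexamers like the CHR. The first of these is TTTGAA, which reads TTCAAA where it lies on the opposite strand. The others, TTCGAA along with the hexamer TTTAAA, read the same on both strands.
Nusap1, chr3:127057115-127057294, plus strand: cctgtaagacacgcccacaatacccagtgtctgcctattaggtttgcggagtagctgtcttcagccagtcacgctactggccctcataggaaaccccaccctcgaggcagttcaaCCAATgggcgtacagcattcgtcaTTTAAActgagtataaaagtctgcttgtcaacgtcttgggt
Kif20a, chr18:26504242-26504421, plus strand: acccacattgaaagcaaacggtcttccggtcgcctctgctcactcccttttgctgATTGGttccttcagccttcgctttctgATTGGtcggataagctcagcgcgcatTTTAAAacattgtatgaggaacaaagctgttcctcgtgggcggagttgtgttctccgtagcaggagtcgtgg
Prc1, chr1:143659301-143659480, plus strand: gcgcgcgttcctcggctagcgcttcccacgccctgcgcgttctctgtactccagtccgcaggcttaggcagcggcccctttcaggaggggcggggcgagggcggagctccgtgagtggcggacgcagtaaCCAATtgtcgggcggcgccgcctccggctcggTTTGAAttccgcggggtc
Top2a, chr10:84473094-84473273, minus strand: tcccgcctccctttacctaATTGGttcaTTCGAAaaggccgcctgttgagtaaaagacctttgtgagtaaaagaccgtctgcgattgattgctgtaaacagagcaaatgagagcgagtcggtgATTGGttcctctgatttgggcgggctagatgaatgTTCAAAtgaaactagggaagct
Kif11, chr1:244536687-244536866, plus strand: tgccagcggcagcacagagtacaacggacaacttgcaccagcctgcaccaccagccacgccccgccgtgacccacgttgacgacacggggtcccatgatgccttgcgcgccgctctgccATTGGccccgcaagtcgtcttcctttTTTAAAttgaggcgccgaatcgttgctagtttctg
Kif2c, chr5:135899213-135899392, minus strand: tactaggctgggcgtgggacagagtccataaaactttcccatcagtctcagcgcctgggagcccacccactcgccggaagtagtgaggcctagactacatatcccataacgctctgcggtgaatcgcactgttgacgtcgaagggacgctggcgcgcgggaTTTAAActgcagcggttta

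The search window was the whole RefSeq window of 300 bases, 250 before and 50 after the start site. A CCAAT box was found in 7 of the 8 genes, all except Kif2c, which has 2 annotated start sites with no CCAAT at either. Of all 33469 rat promoter windows, 37.5% held a CCAAT, and of the 9755 windows of genes tested here, 37.7% did. At least 1 of the 3 hexamers was found in all 8 genes, against 29.4% of all windows and 20.5% of those of tested genes. Both kinds of motif occurred in 7 of the 8, against 11.8% of all windows and 8.17% of those of tested genes. The 8 genes had 9 windows and were counted by gene, while the shares are of single windows. The second Kif2c window held none of these motifs. TTTGAA, the commonest of the 3 hexamers over all windows (18.3%), was present in Prc1, Top2a, Mki67, Nusap1 and Cenpf. It began at base −18 from the start site in Prc1, at −22 in Top2a, at −117 and −99 in Mki67, and at 10 and 3 after the start in Nusap1 and Cenpf. TTTAAA (13.6% of all windows) was the hexamer of Kif11 (−35), Kif20a (−72) and Kif2c (−19), and also stood in Nusap1 (−41) and Cenpf (−153). TTCGAA (1.69%) occurred in Top2a alone of the 8 (−152). The TTTGAA at −99 in Mki67 shares 1 base with the ATTGG at −94. These are matches of letters and show no binding.

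The kinesins of the list were higher in PhIP to different degrees. Kif20a encodes the kinesin that carries the chromosomal passenger complex to the central spindle and is needed for cytokinesis. It had signals of 83.7 and 118.6 on the PhIP arrays, against 41.7 and 46.1 on the control arrays. Both PhIP pools stood well above both control pools, and the 2 PhIP pools lay further apart than the controls. Its mean was 101 ± 24.7 in PhIP and 43.9 ± 3.11 in control (SD, n = 2 pools each), a difference of 1.03 ± 0.20 (limma SE) on the log2(signal + 10) scale. Each difference below is on this scale, PhIP minus control, where the added 10 keeps dim signals from dominating and makes the change of dim genes look smaller. Its adjusted p was 0.114 (limma, Benjamini-Hochberg over the 18625 probe sets tested).

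Kif11 encodes the tetrameric kinesin-5 (Eg5) that pushes the spindle poles apart. Its brightest probe set had 87.0 and 69.0 in PhIP, against 50.7 and 54.6 in control. The groups did not overlap, and PhIP 1 was the higher PhIP pool. The difference was 0.48 ± 0.18 (limma adjusted p = 0.337). Its other probe set had 24.0 and 25.2 in PhIP and 2.3 and 2.3 in control. That probe set lay below the filter on dim probe sets and was not tested, and MAS5 signals this low are not known to be above background here, so no fold is given.

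Kif2c encodes a kinesin-13 (MCAK) that does not walk but removes tubulin from microtubule ends, and corrects faulty attachments at the centromere. It had 134.6 and 153.3 in PhIP, against 133.2 and 126.9 in control, in its brightest probe set. The lower PhIP pool was nearly level with the higher control pool. The difference, 0.13 ± 0.14 (limma adjusted p = 0.709), was smaller than its error. The other Kif2c probe set had 78.7 and 90.1 in PhIP, against 77.3 and 38.7 in control, a difference of 0.53 ± 0.27 (limma adjusted p = 0.456). There, control 2 alone was low and control 1 was level with PhIP 1.

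**Figure D1:**
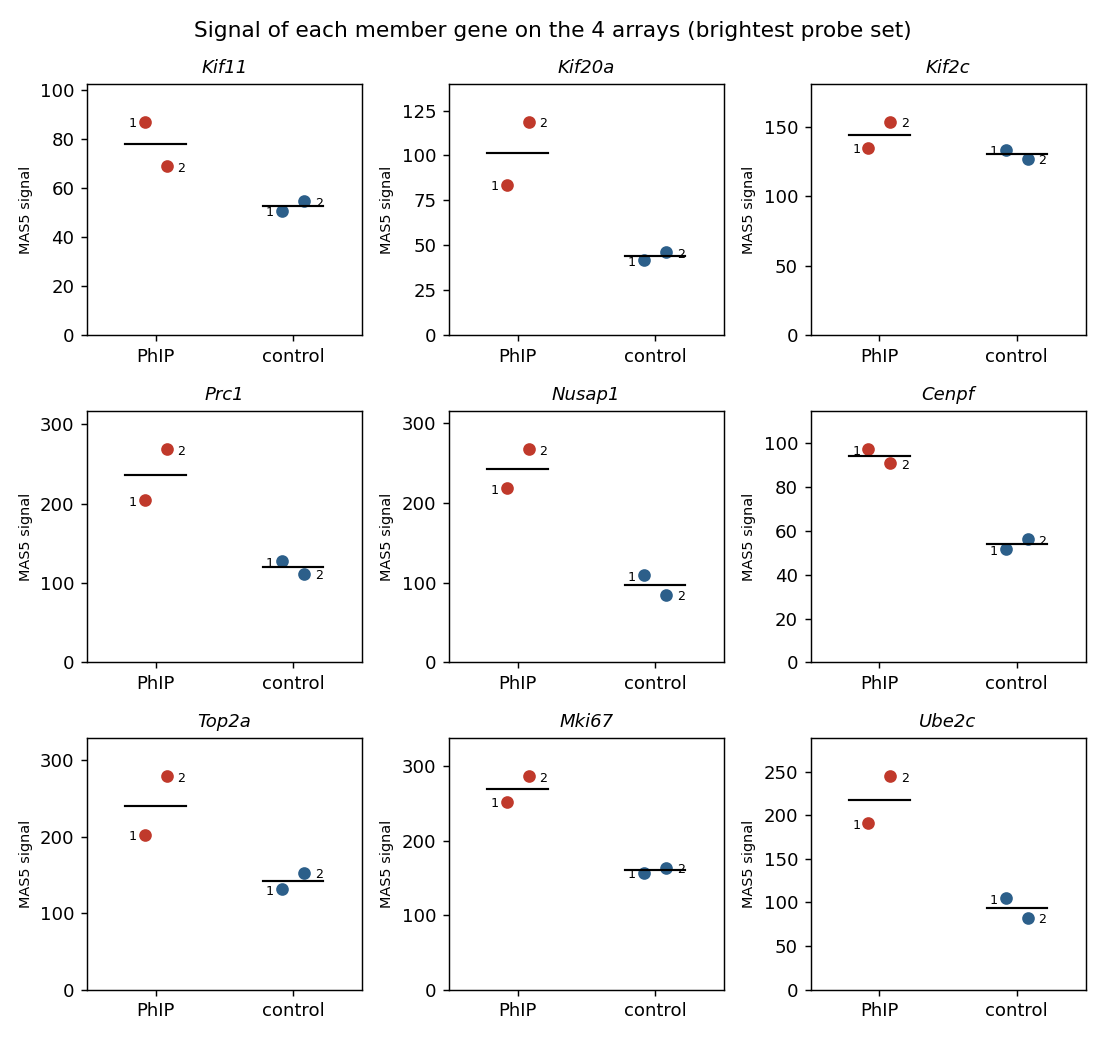
MAS5 signal (vertical axis, linear, from 0) of the brightest probe set of each of the 9 genes, with PhIP left and control right. Each point is 1 array of 2 pooled rats, labelled with its replicate number, and the line is the mean of the 2 arrays. In every panel both PhIP points lie above both control points, by the narrowest margin in Kif2c (134.6 against 133.2).

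The genes whose products bundle spindle microtubules were about as much higher as Kif20a. Nusap1 encodes a nucleolar and spindle-associated protein that ties microtubules together near chromosomes. It had 218.6 and 267.6 in PhIP, against 109.3 and 84.8 in control. Both PhIP pools stood far above both control pools. With means of 243 ± 34.6 in PhIP and 97.0 ± 17.3 in control (SD, n = 2 pools each), the difference was 1.24 ± 0.17 (limma adjusted p = 0.0534). A second probe set had 163.9 and 207.1 in PhIP, against 92.9 and 54.1 in control. Its difference, 1.26 ± 0.24 (limma adjusted p = 0.104), was close to that of the first.

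Prc1 encodes the protein that crosslinks antiparallel microtubules into the central spindle at anaphase, where Kif20a also acts. It had 204.3 and 268.6 in PhIP, against 127.3 and 112.0 in control. Both PhIP pools were above both control pools, and PhIP 2 was the highest of the 4. The means were 236 ± 45.5 in PhIP and 120 ± 10.8 in control (SD, n = 2 pools each), a difference of 0.92 ± 0.17 (limma adjusted p = 0.0977).

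Ube2c encodes the ubiquitin-conjugating enzyme that starts ubiquitin chains for the anaphase-promoting complex, and so helps to end mitosis. It had 190.7 and 244.6 in PhIP, against 104.8 and 82.3 in control. The groups were wide apart. The means were 218 ± 38.1 in PhIP and 93.5 ± 15.9 in control (SD, n = 2 pools each), a difference of 1.13 ± 0.18 (limma adjusted p = 0.0738).

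The chromosome genes showed smaller and closely similar differences. Mki67 encodes Ki-67, the proliferation marker that coats mitotic chromosomes and keeps them apart. It had 252.6 and 286.4 in PhIP, against 156.6 and 163.6 in control. The pools of each group lay close together, and the difference was 0.71 ± 0.13 (limma adjusted p = 0.0977). Cenpf encodes a large kinetochore protein that is made in G2 and destroyed after mitosis. It had 97.1 and 90.7 in PhIP, against 51.5 and 56.0 in control, a difference of 0.70 ± 0.16 (limma adjusted p = 0.155). Like Kif11, and unlike the other 7 genes, it was higher in PhIP 1 than in PhIP 2.

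Top2a encodes topoisomerase II alpha, which passes one DNA duplex through another to untangle sister chromosomes. It had 202.3 and 278.9 in PhIP, against 131.4 and 153.0 in control, a difference of 0.71 ± 0.18 (limma adjusted p = 0.180). The PhIP pools differed more than the gap between PhIP 1 and control 2. Its other probe set had 111.0 and 154.4 in PhIP, against 115.2 and 55.9 in control, and was the only 1 of the 13 probe sets in which the groups overlapped. Its difference was 0.63 ± 0.30 (limma adjusted p = 0.419).

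Over the 9 genes, each in its brightest probe set, the median difference was 0.71, with a range from 0.13 to 1.24. Over all 10507 genes tested, the median was −0.03, with 90% of genes between −0.56 and 0.40. With 0.05 as the limit of an unadjusted limma p, 8 of the 9 genes were higher in PhIP, all except Kif2c, while 6.12% of all tested genes were. Both PhIP arrays lay above both control arrays for 9 of 9 genes, against 21.6% of all tested genes. None of the 9 passed the adjusted p of 0.05 in limma, and 0.0268% of all tested probe sets did (5 of 18625). Among the 12 probe sets tested, 9 were higher at that unadjusted p, against 5.36% of all probe sets. Of the 13 probe sets, 12 had both PhIP arrays above both control arrays, against 19.8% of those tested.

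The differences changed in size as single arrays were left out. Leaving out an array leaves 1 in its group, so that the spread is then estimated from the other group alone and the lone array is assumed to vary like it. The PhIP arrays correlated at r = 0.987 across tested probe sets and the control arrays at 0.972. Among the omissions of a single array, only those of a control array raised the number of genes past the adjusted p of 0.05. Leaving out PhIP 1 or PhIP 2 did not raise it. Without control 1, 7 of the 9 genes passed the adjusted p of 0.05 (7.25% of all probe sets passed as higher), and without control 2, 7 passed as well (1.26%). With the mean of each gene over its probe sets, 6 passed (0.821% of genes passed as higher). Kif11 was among these 6, with a difference of 0.99 that averages in its dim probe set, which was below the filter. The difference of Kif11 was 0.34 without PhIP 1, and that of Top2a was 0.48 without PhIP 2. All 9 differences stayed above 0 without any one array, the lowest being 0.05 for Kif2c without PhIP 2.

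**Figure D2:**
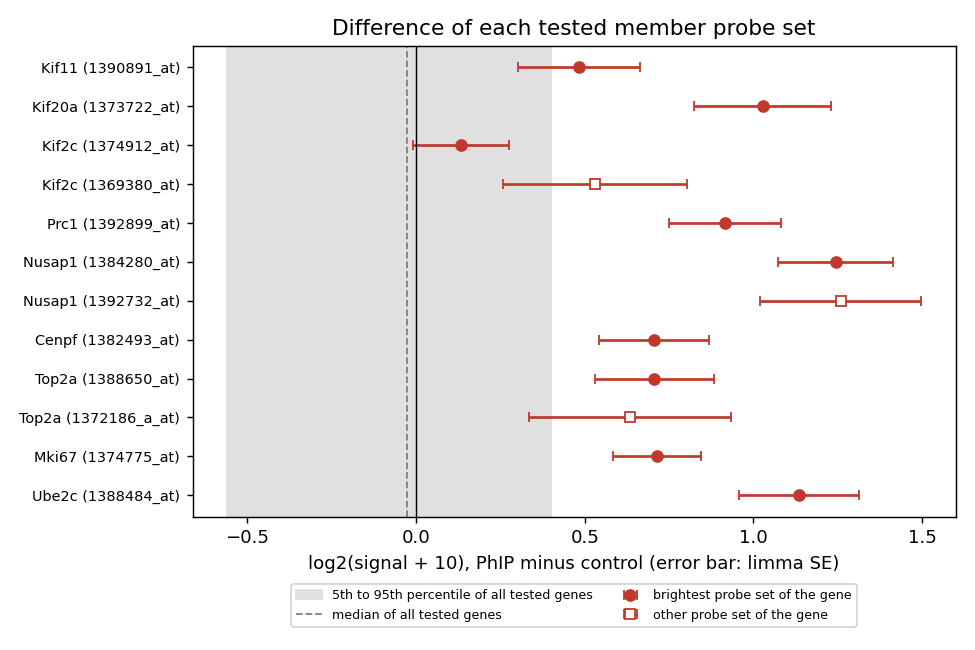
Difference in log2(signal + 10), PhIP minus control (horizontal axis), of the 12 tested probe sets, with the limma SE as error bars. Filled circles are the brightest probe set of a gene and open squares its other probe set, the grey band holds 90% of all 10507 tested genes (−0.56 to 0.40), and the dashed line is their median (−0.03). The 2 Nusap1 probe sets lie furthest right (1.24 and 1.26), and of the filled circles Kif2c (0.13) alone lies inside the band.

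The pools of a group did not stand in the same order for every gene. PhIP 2 was above PhIP 1 in 7 of the 9 genes. Relative to the mean of the control arrays, the median of the 9 genes was 0.73 on PhIP 1 and 0.93 on PhIP 2, against −0.03 on control 1 and 0.03 on control 2. Control 1 was above control 2 in 4 of the 9, namely Kif2c, Nusap1, Prc1 and Ube2c. In the second probe sets of Kif2c, Nusap1 and Top2a, control 2 was the lowest of the 4 arrays (38.7, 54.1 and 55.9). The ratio of 3′ to 5′ signal, which grows as RNA degrades, was also highest there. For actin it was 3.93 and 3.49 on the PhIP arrays, against 4.18 and 5.71 on the control arrays. For Gapdh it was 1.45 and 1.44, against 1.34 and 2.06. Its part in the differences was not tested. Without control 2, with a single control array left, the median of the 9 genes was 0.81. The hybridization controls, bacterial transcripts added in fixed amounts, stood at −0.29 and −0.18 on the PhIP arrays, against −0.04 and 0.04 on the control arrays, as mean log2 signals relative to the control mean. Scaling to them raised each of the 9 differences.

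Other genes of the mitotic machinery, from 4 lists of 61 genes that are not among the members, were set beside them. Of the 51 tested, 21 were higher in PhIP and 1 was lower at an unadjusted limma p under 0.05 (6.12% of all tested genes were higher and 8.45% lower), and 0 passed the adjusted p. Their median difference was 0.28. The medians of the lists changed as single arrays were left out, as given below for each list.

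Among other mitotic kinesins, 6 of the 8 tested were higher and 0 lower, with a median of 0.75. Kif18b, which tunes astral microtubules, had 76.1 and 72.4 in PhIP, against 36.1 and 31.8 in control (difference 0.94 ± 0.18, limma adjusted p = 0.107). The chromosome-arm motor Kif22 stood at 0.81 ± 0.16, the minus-end motor Kifc1 at 0.75 ± 0.18, and Kif23, which with Racgap1 forms the centralspindlin complex of the midzone, at 0.63 ± 0.18. In Kif15, which can stand in for Kif11 in spindle assembly and was picked for naming with its values known, the groups overlapped, with 107.9 and 123.6 in PhIP and 108.5 and 99.7 in control. The median of the 8 ranged from 0.67 to 0.84 as each array was left out.

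Of the spindle assembly and midzone genes, 8 of 13 tested were higher and 0 lower, with a median of 0.64. The median ranged from 0.42 (without PhIP 2) to 0.82 (without PhIP 1) as each array was left out. Spag5, which encodes the spindle protein astrin, had 72.1 and 75.9 in PhIP, against 32.3 and 31.0 in control (1.01 ± 0.18, limma adjusted p = 0.0929). Gtse1, whose product stabilises microtubules in mitosis and restrains p53 in G2, had 59.0 and 101.3 in PhIP, against 11.3 and 25.0 in control (1.68 ± 0.32, limma adjusted p = 0.103). Ect2, the exchange factor that starts the cleavage furrow, stood at 0.83 ± 0.16, and its partner Racgap1 at 0.68 ± 0.16. The groups overlapped in the spindle pole gene Numa1 (−0.03 ± 0.16) and the microtubule polymerase gene Ckap5 (−0.06 ± 0.14), both named after their values were seen. Cit, also named with its values known, had 28.1 and 23.4 in PhIP, against 35.6 and 44.3 in control. Its difference was −0.48 ± 0.22 (limma adjusted p = 0.403). With eBayes without trend, 1 gene of the list was lower at an unadjusted p under 0.05.

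Of the condensin and mitotic chromosome genes, 5 of 11 tested were higher and 0 lower (median 0.42, and 0.29 to 0.55 without single arrays). They were led by the condensin subunit genes Ncapd2 (0.73 ± 0.18), Smc2 (0.61 ± 0.18) and Ncapg2 (0.99 ± 0.29) and the centromeric cohesion protector gene Sgo1 (0.67 ± 0.25). The condensin gene Smc4, the obligate partner of Smc2, had 36.6 and 68.0 in PhIP, against 46.6 and 55.2 in control. The groups overlapped, and the gene is named after its values were seen.

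The list of the anaphase-promoting complex, with which Ube2c works, and of other anaphase genes had a median of −0.01 over 19 tested genes. With other scalings it was 0.13 (median centring) and 0.21 (hybridization controls). It ranged from −0.02 to 0.06 as each array was left out. Of the 19, 2 were higher and 1 lower, against 6.12% and 8.45% of all tested genes. With median centring the counts were 5 and 0, where 13.5% of all probe sets were higher. With the hybridization controls they were 6 and 0, where 19.8% were higher. Of the 2, Espl1 encodes separase, which cuts cohesin at anaphase, and Pttg1 encodes securin, its inhibitor. Espl1 had 70.1 and 82.7 in PhIP, against 37.5 and 26.1 in control (1.06 ± 0.21, limma adjusted p = 0.115), and Pttg1 had 108.8 and 163.0, against 99.3 and 58.1 (0.73 ± 0.27, limma adjusted p = 0.320). The subunit gene Anapc13 was the lower one, with 481.0 and 351.1 in PhIP, against 621.4 and 494.4 in control (−0.42 ± 0.17, limma adjusted p = 0.363). The RING subunit gene Anapc11 stood at 0.23 ± 0.10. The list left out the subunit genes Anapc15 and Anapc16, which were looked up with their values known. Anapc15, whose product helps to remove the spindle checkpoint complex from the enzyme, had 91.3 and 71.9 in PhIP, against 27.4 and 22.8 in control. Its groups were wide apart, with a difference of 1.38 ± 0.20 (limma adjusted p = 0.0607), above that of each of the 9 genes in their brightest probe sets. Anapc16 had 91.9 and 101.9 in PhIP, against 91.5 and 87.9 in control (0.10 ± 0.15).

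Relatives of the members that are known mainly from outside mitosis were listed beside them, although Kif2a, a paralogue of Kif2c on that list, also acts at spindle poles. Of 13 tested kinesin and kinesin light chain genes, 0 were higher and 3 lower (background 6.12% and 8.45%), with both PhIP arrays below both control arrays for 7 of the 13, against 26.9% of all tested genes. Both PhIP arrays lay above both control arrays for 1 of the 13, Kif13a, against 21.6% of all tested genes. Kif13a, named with its values known, had 51.0 and 43.4 in PhIP, against 43.2 and 7.2 in control. Its difference was 0.92 ± 0.46 (limma adjusted p = 0.450). The median of the 13 was −0.19, and 0.01 with the hybridization controls, where 1 was higher and 1 lower. With median centring 0 were higher and 1 lower. Kif2a, named for its kinship to Kif2c with its values known, had 107.3 and 113.4 in PhIP, against 123.8 and 77.3 in control, and the groups overlapped. Kif26b, a kinesin without motor activity that takes part in cell adhesion and polarity, had 17.5 and 11.5 in PhIP, against 32.5 and 50.4 in control (−1.06 ± 0.27, limma adjusted p = 0.181). Kif21a stood at −0.45 ± 0.17, the light chain gene Klc2 at −0.41 ± 0.16 and Kif16b at −0.26 ± 0.12. Top2b, the paralogue of Top2a that is present in non-dividing cells, had 580.0 and 591.6 in PhIP, against 559.5 and 465.8 in control (0.19 ± 0.12, limma adjusted p = 0.514). The ubiquitin-conjugating enzyme gene Ube2n stood at 0.26 ± 0.10, Ube2l3 at 0.22 ± 0.16 and Ube2b at −0.04 ± 0.12. No test compared these lists with the members.

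**Figure D3:**
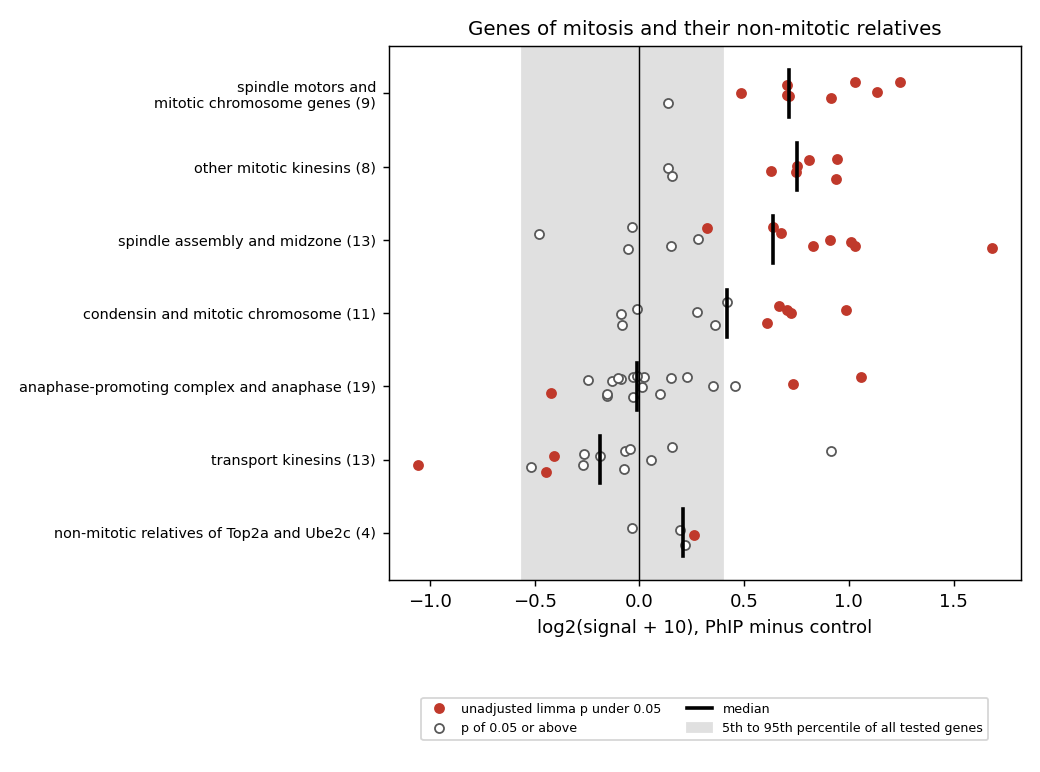
Difference in log2(signal + 10), PhIP minus control (horizontal axis), of each tested gene in its brightest probe set, by list, with the number of genes in brackets. Filled points have an unadjusted limma p under 0.05, black bars are list medians, and the grey band holds 90% of all tested genes (−0.56 to 0.40). The medians of the first 4 rows lie between 0.42 and 0.75, and that of the anaphase-promoting complex row is −0.01.

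Marker genes of several cell types differed between the groups. Fewer cells of a type cannot be told apart from less RNA per cell in such bulk samples. Tissue identity was clear on all arrays: the spermine-binding protein gene Sbp had 8219.2 and 8045.3 in PhIP, against 7243.7 and 6436.1 in control, and the probasin gene Pbsn 4273.0 and 4643.4, against 4898.1 and 4398.8. Both were chosen with their values known. Of 11 luminal epithelial genes, 7 were higher and 0 lower at an unadjusted limma p under 0.05 (6.12% and 8.45% of all tested genes). Their median was 0.25. With median centring 10 were higher (median 0.39), against 13.5% of all probe sets. With the hybridization controls 10 were (median 0.48), against 19.8%, and with eBayes without trend 3, against 3.78%. The luminal median ranged from 0.17 to 0.29 as each array was left out. Their summed signal was 25119 and 25347 in PhIP, against 23089 and 21502 in control. The largest luminal difference by its moderated statistic was that of the keratin gene Krt19 (0.63 ± 0.12), followed by the E-cadherin gene Cdh1 (0.29 ± 0.07).

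Stromal markers were lower. Of 10 smooth muscle genes, 9 were lower and 0 higher. The shares over all tested genes were 8.45% lower and 6.12% higher, here and for each cell type below. The smooth muscle median was −0.79, with a summed signal of 4197 and 4149 in PhIP, against 6893 and 6930 in control. Acta2, the smooth muscle actin gene, stood at −0.84 ± 0.10, and Actg2 at −0.97 ± 0.12. Of 9 fibroblast genes, 7 were lower and 0 higher, with a median of −0.56 (5 lower and −0.34 with the hybridization controls) and a summed signal of 7158 and 7209 in PhIP, against 11964 and 9435 in control. Col1a2, a collagen gene, stood at −0.88 ± 0.12, and the microfibril gene Mfap5 at −0.72 ± 0.11. The groups overlapped in Dcn (−0.09 ± 0.12) and Pdgfrb (−0.17 ± 0.29) of the fibroblast list, both named after their values were seen. The part of these marker differences in the values of the mitotic genes was not tested.

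Among the other types, basal cell genes had a median of −0.20 over 4 genes (0.01 after scaling to the hybridization controls), with 0 higher and the keratin gene Krt14 lower (−0.41 ± 0.16; 0 lower with median centring). The basal regulator gene Tp63 stood at −0.43 ± 0.19. The groups overlapped in the brighter keratin genes Krt5 and Krt15, both named after their values were seen. Krt5 had 278.6 and 294.9 in PhIP, against 278.4 and 295.8 in control. Krt15 had 405.8 and 502.7, against 473.5 and 431.9. Of 10 measured leukocyte genes, 5 were bright enough to test, with 1 higher and 1 lower (0 lower under either of these scalings) and a median of −0.12, which was 0.01 with median centring. The summed leukocyte signal was 5637 and 5682 in PhIP, against 4833 and 4674 in control. It came mostly from the lysozyme gene Lyz2 (5321.2 and 5372.0, against 4465.1 and 4256.6), while Cd74, of antigen presentation, was lower (−0.37 ± 0.13). The pan-leukocyte gene Ptprc, chosen with its values known, stood at 20.5 and 19.7 in PhIP, against 14.0 and 17.6 in control. The T cell gene Cd3e and the B cell gene Cd79b, also named after their values were seen, were below the filter, with Cd79b between 0.7 and 1.7 on all arrays. Endothelial genes had a median of −0.43 with 2 of 5 lower (−0.23 and 1 with the hybridization controls), Eng at −0.60 ± 0.18 and Tie1 at −0.87 ± 0.27. Skeletal muscle genes had a median of −1.15 with 3 of 5 lower, Acta1 at −1.03 ± 0.14 and Tnnc2 at −1.15 ± 0.18. The median was −1.87 without control 1, −0.92 without control 2 and −0.93 with the hybridization controls. Control 2 was far above control 1 in Tnni2 (71.4 against 20.2), Ckm (93.9 against 22.6) and Myl1 (305.6 against 5.2). These genes were named after their values were seen, and the groups overlapped in Myl1. In Acta1 the control arrays were close (658.2 and 691.1). Adipocyte genes had a median of −0.88 with 2 of 3 lower, Fabp4 at −0.83 ± 0.21 and Lpl at −1.10 ± 0.28. The median was −0.61 without PhIP 1, −1.41 without PhIP 2, −0.67 without control 1 and −1.36 without control 2. The groups overlapped in Adipoq, named after its values were seen, with 3.5 and 19.5 in PhIP, against 41.2 and 16.4 in control.

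**Figure D4:**
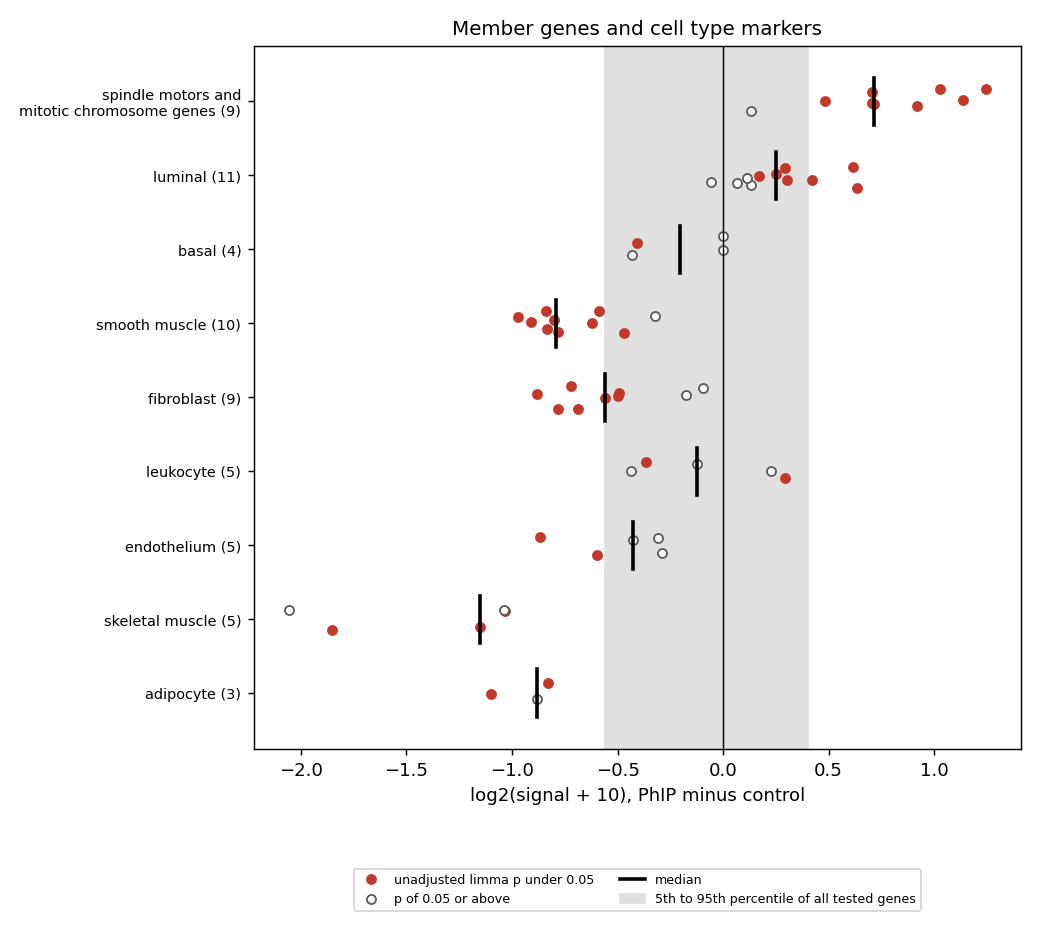
Difference in log2(signal + 10), PhIP minus control (horizontal axis), of the 9 genes (top row) and of the tested marker genes of 8 cell types, with the number of genes in brackets. Filled points have an unadjusted limma p under 0.05, black bars are medians, and the grey band holds 90% of all tested genes. Luminal markers have a median of 0.25 and smooth muscle markers one of −0.79, against 0.71 for the 9 genes.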

How the data were processed

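The deposited values are MAS5 intensities, 1 signal per probe set and array, made from biotin-labelled cRNA (5 µg of total RNA), per the labels and the submitters' processing notes, which give no MAS5 version. The authors' scaling gave all 4 arrays the same trimmed mean of 100.0 (2% trimmed at each end). No detection calls were used, and precision is limited by having 4 arrays. Of 31099 probe sets, 57 manufacturer controls were left out. The annotation gave 20832 probe sets 1 symbol, 436 several and 9831 none, and 0 of the 20764 symbols found in RefSeq (GRCr8) by Entrez identifier changed.

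Signals were analysed as log2(signal + 10). The 18625 probe sets whose mean exceeded the 40th percentile (a signal plus constant of 24.3) entered the test with limma 3.58.1 in R 4.3.3 (eBayes with intensity trend, two-sided, Benjamini-Hochberg), on 2 residual and 5.67 prior degrees of freedom. A gene was represented by its probe set with the highest mean. The steps were tested on simulated data. An exact permutation test of 2 against 2 arrays cannot go below p = 0.333 and was not run. Plots used Python 3.11.15 and matplotlib 3.10.9.

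The members, the lists and the tests were chosen with earlier results of these data known. All members and all their probe sets are named. From each mitotic or transport list, the rule named up to 4 genes with the largest moderated statistic and any gene with an unadjusted p under 0.05 against the list's median, and from each cell type list up to 2. Other names are said to have been chosen after their values were seen. Alternatives were other constants, filters and normalizations, eBayes without trend, a replicate block, omission of each array, and averaging the probe sets of each gene.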

Additional observations from a re-analysis of the deposited data

How the results depend on the processing

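The differences of the 9 genes were above 0 in all 135 values from 15 alternatives. The median over the genes was 0.71; it was 0.94 after scaling to the hybridization controls and 0.92 with probe sets averaged per gene, where the dim probe set of Kif11 moves that gene to 0.99 from 0.48, and ranged from 0.68 to 0.93 as each array was left out. Median centring and scaling to the hybridization controls moved the median of all probe sets to 0.11 and 0.18, from −0.03, and the 9 genes stood 0.74 and 0.76 above it, against 0.74 without them. The number of genes past the adjusted p of 0.05, 0 as reported, was 7 after scaling to the hybridization controls (0.827% of all probe sets passed as higher), 6 with the mean of probe sets (0.821%), where 8530 genes were tested, and 1 with the filter at the 60th percentile (Nusap1, adjusted p = 0.0458; 0.209%). It ranged from 0 to 7 as each array was left out. The number at an unadjusted p under 0.05 was 8, and 7 to 9 in every alternative. The number of other mitotic genes higher was 21, with 13 at the 60th percentile, where fewer were tested, and 8 to 23 as each array was left out; the cause of the drop to 8 was not tested. Over all probe sets, the 5 calls became 22 with a constant of 20, 44 at the 60th percentile, 35 with the replicate block, 164 after scaling to the hybridization controls, 128 genes with the mean of probe sets, 3 after cyclic loess, and 0 without a filter, after quantile normalization or median centring, and with eBayes without trend. They numbered 0 to 2334 as each array was left out. The higher share of all probe sets at an unadjusted p under 0.05 was 5.36%, and 13.5% and 19.8% after median centring and scaling to the hybridization controls. The labels number the replicates 1 and 2 in both groups but name no shared batch, and the deviations of PhIP 1 and control 1 from their group means correlated at r = −0.06 across probe sets, which are not independent replicates. With the replicate block, 8 of the 9 genes were higher at an unadjusted p under 0.05, 0 passed the adjusted p, the median stayed 0.71, and 19 other mitotic genes were higher.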
